A study of Mus musculus with 6 samples.

Results

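The genes described here mark the maturation of neutrophils in the bone marrow. They are 31 genes chosen by name: 5 of the primary granules (Mpo, Elane, Prtn3, Ctsg and Ms4a3), 5 of the secondary granules (Ltf, Camp, Ngp, Lcn2 and Fcnb) and 21 grouped as genes of mature neutrophils. A probe set naming that gene alone was found for 28 of the 31 genes, out of 18193 genes in all. Cebpe, Retnlg and Ly6g had no such probe set, so no expression value is given for them. The third group also holds regulators such as Gfi1 and genes such as Lyz2 and Cybb that monocytes and macrophages transcribe, so its name is a working one.

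Femurs of 3 C57BL/6 males, 8 weeks old and given intraperitoneal saline, were the source of RNA for both regions. The endosteal group (3 arrays, A, B and C) is RNA that Trizol, a lysis reagent, took from the inside of the bone shaft after the marrow had been flushed out. The central group (3 arrays, A, B and C) is RNA of the flushed marrow cells, which were pelleted before lysis. The metaphyses had been cut away, and both groups are mixtures of all cells in their fraction, so fewer neutrophils of a stage and less RNA per cell cannot be told apart.

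Neutrophils arise from promyelocytes, which make the primary (azurophil) granules with myeloperoxidase and serine proteases. Myelocytes and metamyelocytes then stop making these proteins and fill secondary (specific) granules with lactoferrin, cathelicidin and lipocalin. Band and segmented cells no longer divide, and they gain the receptors and enzymes with which the mature cell leaves the marrow and kills microbes. Transcripts of the granule proteins are therefore read as stage marks in the marrow.

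Values below are the authors' array signals on a linear scale, and changes are differences in log2(signal + 16), endosteal minus central, from limma, with a standard error (SE) and a p-value adjusted by the Benjamini-Hochberg method over all 18193 genes. A gene is called higher or lower where that adjusted p was under 0.05. Signals of different probe sets are not comparable as levels, so only the same gene is compared between arrays. Where 3 values are given for a region, they stand in the order A, B, C.

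The medians of the 3 groups of genes were ordered by stage, which holds for these genes and not for a further myelocyte list given below. Of the 5 primary granule genes, 2 were called higher in endosteal RNA and 0 lower, with a median log2 change of 0.85. Of the 5 secondary granule genes, 2 were called higher and 0 lower, with a median of 0.22. Of the 18 measured genes of the mature group, 0 were called higher and 6 lower, with a median of -0.56. Among all genes tested, 7.74% were called higher and 3.97% lower, and their median change was 0.10. All 28 measured members lay above the median level of all genes. In the same fit as these counts, 8.62% of the 9096 genes above that level were called higher and 6.95% lower. When limma was run on those 9096 genes alone, 18.3% of them were called higher and 18.9% lower. That run called 8 members higher and 10 lower. With the array letter as a replicate block, 0 members were called higher and 0 lower, against 0.467% and 0.0% of all genes, and at an unadjusted limma p under 0.05 the block fit gave 7 members higher and 10 lower, against 16.6% and 10.4% of all genes. The labels do not say whether a letter marks 1 mouse.

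Without the fit, the same order stood in the arrays themselves. The 3 endosteal arrays lay wholly above the 3 central arrays for 5 of 5 primary granule genes, 3 of 5 secondary granule genes and 1 of 18 genes of the mature group (22.1% of all genes). They lay wholly below for 0, 0 and 11 genes of these groups (15.4% of all genes). The stages also moved apart within an array, where a common scale factor cancels. Both medians were taken relative to the central means. The primary median minus the mature median was 1.74, 1.25 and 1.21 on endosteal arrays. On central arrays it was -0.25, 0.13 and 0.07. The central values lie around 0 by construction and give only the spread between arrays.

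Direction against 0 depends on how arrays are scaled, whereas a common scale factor cannot change the order of the stages. Scaling to the poly-A spike controls moved the median of all genes to 0.96, and the mature median was then 0.46 instead of -0.56. Relative to the median of all genes, the primary median was 0.53 to 0.91 higher and the mature median 0.49 to 0.78 lower over 18 settings, the reported one included. The secondary median lay between -0.04 and 0.28 of it. The primary median exceeded the secondary one by 0.49 to 0.74, and the secondary exceeded the mature one by 0.56 to 0.85. The intensity trend, both replicate blocks and the restriction to genes above the median level leave the stage medians unchanged by construction. Centring and poly-A scaling shift all genes of an array almost alike. The order could change only with quantile normalisation, other probe sets or pseudocounts, or an array left out, and there it was kept.

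**Figure D1:**
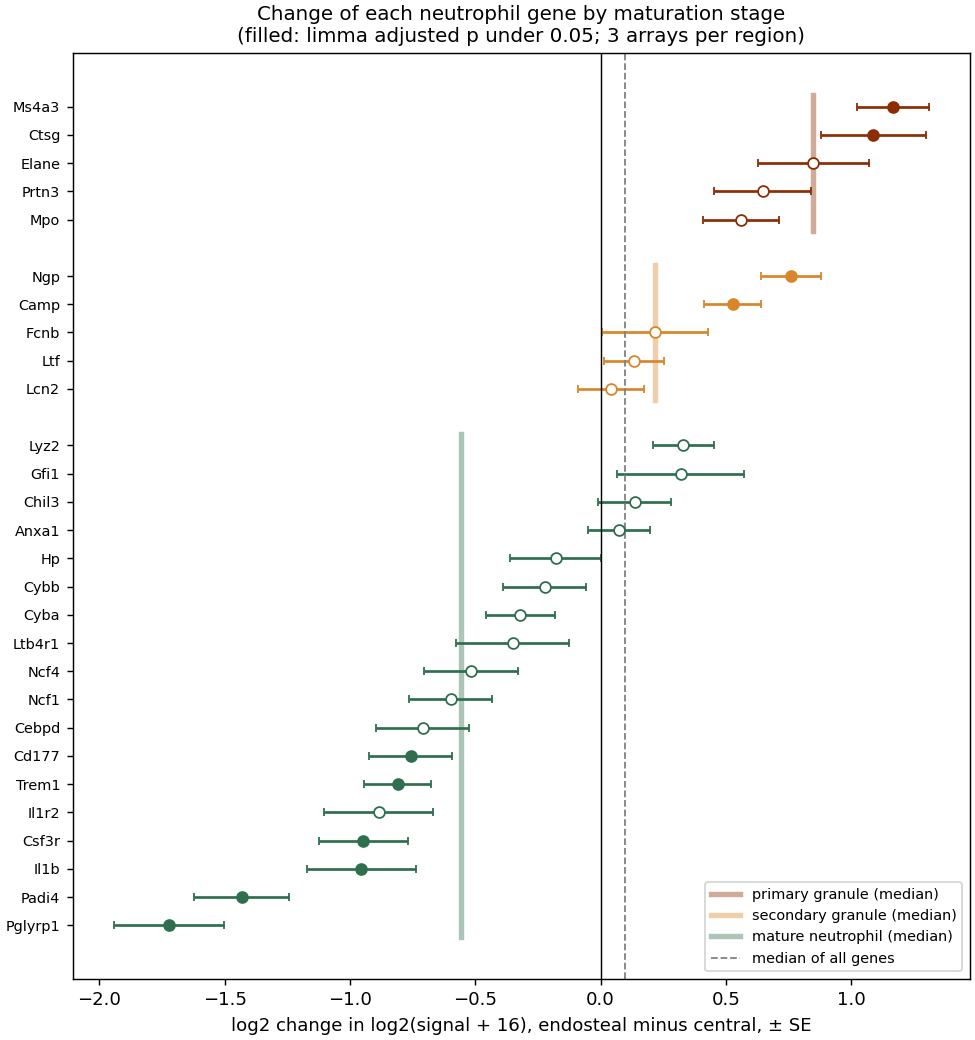
Log2 change of each of the 28 measured genes (horizontal axis, endosteal minus central, bars SE, 3 arrays per region), by stage from top to bottom, with filled points for genes called by limma, coloured lines for stage medians and a dashed line for the median of all genes. All 5 primary granule genes lie right of 0 and 14 of 18 genes of the mature group lie left of it, although 12 of these 14 turn positive when arrays are scaled to the poly-A controls.

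Markers of bone and muscle moved with the comparison. The 8 skeletal muscle genes were all called higher, with a summed signal of 57833 to 113983 on endosteal and 316 to 611 on central arrays. Of 5 osteoblast and bone matrix genes, 4 were called higher, with sums of 61132 to 74981 on endosteal and 1541 to 1978 on central arrays. The 14 monocyte and macrophage genes held 4 called higher and 2 called lower, with sums of 61190 to 65891 on endosteal and 61967 to 69783 on central arrays. No gene of these lists was listed at 0. The ratio of 3' to 5' control probe sets was 1.32 to 1.40 on endosteal and 1.15 to 1.23 on central arrays for beta-actin, and 0.77 to 0.88 on endosteal and 0.82 to 0.89 on central arrays for Gapdh. The part of other cells and of RNA quality in the results on neutrophil genes was not tested.

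Ms4a3, which encodes a membrane protein of granulocyte and monocyte progenitors, rose most among the primary granule genes. Its signal was 10852, 8808 and 8704 on endosteal arrays, against 4010, 4473 and 4086 on central arrays. The lowest endosteal value lay above the highest central one, and endosteal A was the highest array. The log2 change was 1.17 (SE 0.14, limma adjusted p = 0.0110), which is 2.24-fold. Ms4a3 kept its call when any of the 6 arrays was left out (highest adjusted p = 0.0453).

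Ctsg encodes cathepsin G, a serine protease of the azurophil granule. Its signal was 27139, 16762 and 19640 on endosteal arrays, against 9694, 10488 and 9112 on central arrays. The groups did not overlap, and endosteal A was the highest array. The log2 change was 1.09 (SE 0.21, limma adjusted p = 0.0308). The call was lost without endosteal C or any of the 3 central arrays (adjusted p up to 0.0978), and when every array was centred at its own median (0.82, limma adjusted p = 0.0515).

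Elane, Prtn3 and Mpo encode neutrophil elastase, proteinase 3 and myeloperoxidase, the classic azurophil enzymes. Elane had signals of 38219, 23814 and 25417 on endosteal arrays, against 17078, 16407 and 14113 on central arrays. Its log2 difference of 0.85 (SE 0.22) did not pass (limma adjusted p = 0.0638). Prtn3 had 30722, 20646 and 22347 on endosteal arrays, against 16992, 15473 and 14026 on central arrays, with a difference of 0.65 (SE 0.19, limma adjusted p = 0.0890). Mpo had 47153, 35390 and 39709 on endosteal arrays, against 27940, 28340 and 26095 on central arrays, with a difference of 0.56 (SE 0.15, limma adjusted p = 0.0699).

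In each of the 3, the lowest endosteal array lay above the highest central array, and endosteal A stood above B and C. The primary granule median relative to the central means was 1.27 on endosteal A, 0.59 on B and 0.68 on C, and 0.03, 0.05 and -0.10 on central A, B and C. Endosteal A was also the array with the highest muscle sum, and the part of this in the values was not tested. Without it, the median change of the 5 genes was 0.64, and Ms4a3 and Ctsg kept their calls.

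**Figure D2:**
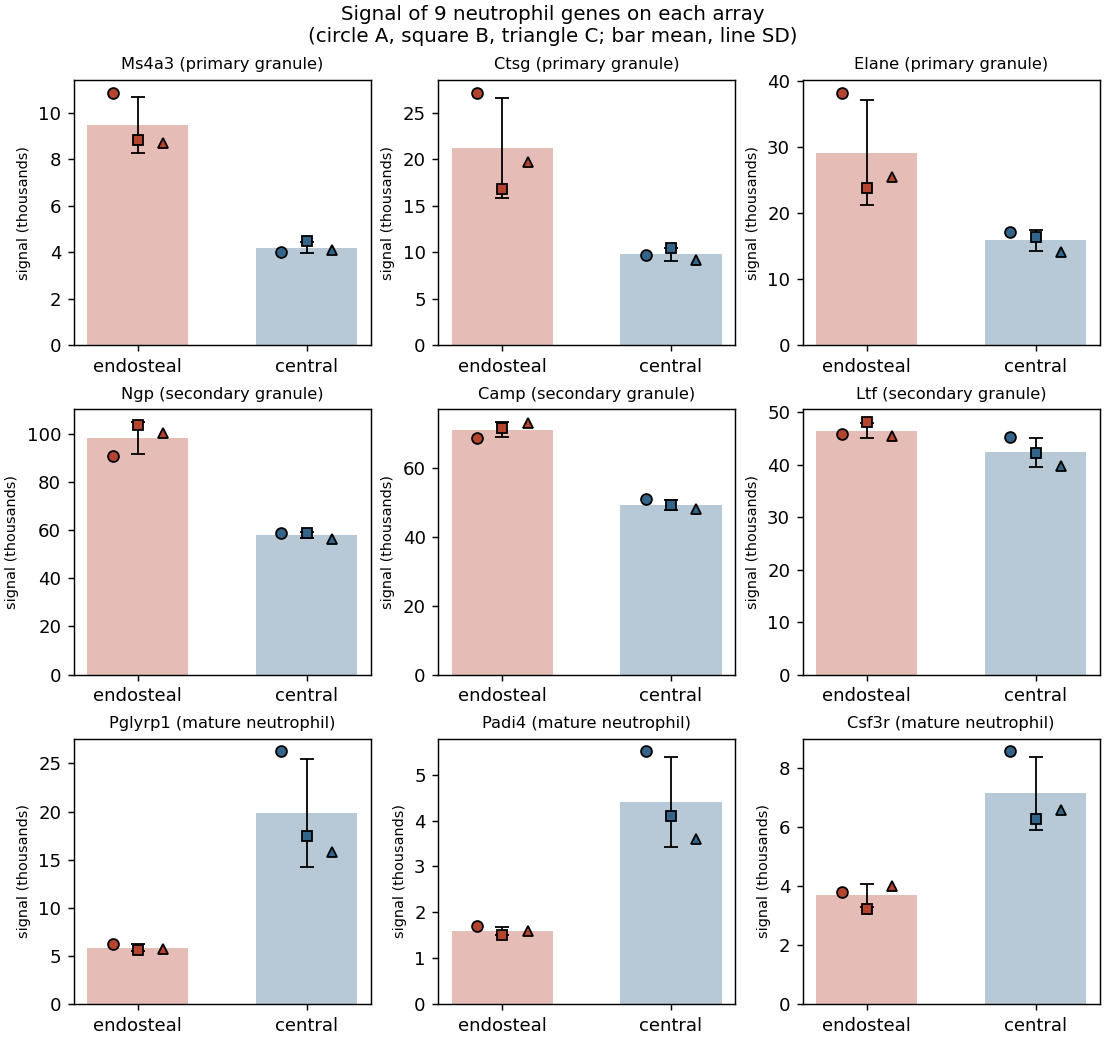
Signal (linear vertical axis from 0, scaled down as marked on it) of 9 genes on each array, 3 genes of each stage by row, with bars for the mean of 3 arrays and lines for the SD. The endosteal points of Ms4a3, Ctsg, Elane, Ngp, Camp and, by a small margin, Ltf lie above all central points, and those of Pglyrp1, Padi4 and Csf3r below; relative to poly-A controls Csf3r instead has a log2 change of 0.075.

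Secondary granule genes did not move together. Ngp, which encodes neutrophilic granule protein, a relative of the cathelicidins, had signals of 91032, 103695 and 100548 on endosteal arrays, against 58880, 58677 and 56472 on central arrays. It rose by 0.76 on the log2 scale (SE 0.12, limma adjusted p = 0.0192). Camp encodes the cathelicidin CRAMP, an antimicrobial peptide precursor. It had 68747, 71562 and 73077 on endosteal arrays, against 50934, 49128 and 48018 on central arrays, and rose by 0.53 (SE 0.11, limma adjusted p = 0.0400).

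The call of Camp was close to the threshold, and both calls depended on the scale. Ngp was called without endosteal A alone among the 6 sets that leave out an array (adjusted p up to 0.0736), and Camp in none of them (up to 0.127). With every array centred at its own median the log2 change was 0.49 for Ngp and 0.26 for Camp. Neither passed there (limma adjusted p = 0.0584 and 0.230). After quantile normalisation the log2 change was 0.069 for Ngp and -0.017 for Camp, and neither passed (limma adjusted p = 0.736 and 0.941). That step gives every array the same set of values, which limits how far such bright genes can differ.

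The other 3 genes had log2 changes close to the median change of all genes. Ltf, the iron-binding lactoferrin, had 45850, 48080 and 45353 on endosteal arrays, against 45174, 42200 and 39670 on central arrays (log2 difference 0.13, SE 0.12, limma adjusted p = 0.516). The endosteal values were above the central ones by a margin smaller than the spread of the central arrays. Lcn2, a lipocalin that withholds bacterial iron chelators, had 47836, 46435 and 45896 on endosteal arrays, against 51136, 43941 and 41741 on central arrays (log2 difference 0.04, SE 0.13). Fcnb, a ficolin that binds microbial sugars, had 9540, 6849 and 7044 on endosteal arrays, against 7955, 6716 and 5488 on central arrays (log2 difference 0.22, SE 0.21). Arrays of both regions overlapped for Lcn2 and Fcnb.

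Promoter sequence is shown here because C/EBP factors, of which C/EBP epsilon is required in mice for secondary granule genes, and PU.1, a master regulator of myeloid cells, are known for short binding motifs. The 250 bases before the start site, from RefSeq on GRCm38.p6, were available for 27 of the 31 genes. The motifs searched, on both strands, were TTGCNNAA for C/EBP factors (N is any base) and GAGGAA for PU.1. In no promoter of the 27 genes did a match to one overlap a match to the other. TTGCNNAA stood in 4 of 5 secondary granule promoters (Fcnb, Lcn2, Ltf and Ngp), 0 of 5 primary granule promoters and 4 of 17 promoters of the mature group, against 9.56% of 32851 start sites of the same length. GAGGAA stood in 4 of 5 primary promoters (Ctsg, Elane, Mpo and Prtn3), 2 of 5 secondary promoters and 7 of 17 of the mature group, against 23.3% of all. A member gene was counted where any of its start sites held a match, whereas the shares of all are over single start sites. These are matches of letters and not measured binding.

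The whole stretches follow for Ms4a3, Ngp and Pglyrp1, the called gene with the largest change of each stage, and for Ctsg, the other called primary granule gene. Each runs 5′ to 3′ on the strand of its gene up to the base before the start, with matches to either motif in capitals.
Ms4a3, chr19:11640852-11641101, minus strand: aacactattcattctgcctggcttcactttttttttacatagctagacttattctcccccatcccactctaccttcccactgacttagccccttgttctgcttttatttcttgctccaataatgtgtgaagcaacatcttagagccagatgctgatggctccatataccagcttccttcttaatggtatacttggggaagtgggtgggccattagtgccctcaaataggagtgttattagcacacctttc
Ctsg, chr14:56102575-56102824, minus strand: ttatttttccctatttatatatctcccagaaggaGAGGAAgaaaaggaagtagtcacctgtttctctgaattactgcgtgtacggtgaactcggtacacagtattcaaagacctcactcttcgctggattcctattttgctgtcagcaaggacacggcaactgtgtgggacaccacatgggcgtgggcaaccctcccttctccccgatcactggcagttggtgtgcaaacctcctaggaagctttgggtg
Ngp, chr9:110419558-110419807, plus strand: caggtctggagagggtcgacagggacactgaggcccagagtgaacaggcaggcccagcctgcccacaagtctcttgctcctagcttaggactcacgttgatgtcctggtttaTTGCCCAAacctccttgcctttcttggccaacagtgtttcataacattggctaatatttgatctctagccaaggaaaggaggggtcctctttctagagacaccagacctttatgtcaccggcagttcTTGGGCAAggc
Pglyrp1, chr7:18884440-18884689, plus strand: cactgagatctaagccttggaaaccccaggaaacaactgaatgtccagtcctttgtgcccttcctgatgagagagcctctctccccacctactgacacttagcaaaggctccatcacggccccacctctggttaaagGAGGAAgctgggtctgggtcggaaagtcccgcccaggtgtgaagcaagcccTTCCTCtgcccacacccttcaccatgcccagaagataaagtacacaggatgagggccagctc
Ms4a3, the primary granule gene with the largest change, holds neither motif in this stretch. Ngp holds TTGCNNAA 11 and 138 bases before its start, and Pglyrp1 holds GAGGAA 62 and 113 bases before.

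The matches to TTGCNNAA in the other secondary granule genes are given with 11 bases on each side, the match in capitals, 5′ to 3′ on the strand of the gene.
Fcnb, chr2:28084983-28085012, minus strand: ttttaggtctcTTGTGCAAccagaggcctc
Fcnb, chr2:28085095-28085124, minus strand: caaggcaggccTTTTGCAAacagaggtgcc
Lcn2, chr2:32387937-32387966, minus strand: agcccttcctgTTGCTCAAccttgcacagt
Ltf, chr9:111019206-111019235, plus strand: aggcaggcctaTTGGGCAAtagggtggggc
Ngp, which was called higher, and Ltf, Lcn2 and Fcnb, which were not, all hold the motif, while Camp, which was called higher, does not.

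In the mature group, the largest decreases were in Pglyrp1 and Padi4. Pglyrp1 encodes a peptidoglycan recognition protein stored in neutrophil granules. Its signal was 6274, 5594 and 5697 on endosteal arrays, against 26245, 17458 and 15752 on central arrays. The endosteal arrays were tightly grouped, and the lowest central array was more than 2 times the highest endosteal one. The log2 change was -1.72 (SE 0.22, limma adjusted p = 0.0119), which is 3.30-fold lower. Pglyrp1 kept its call whichever of the 6 arrays was left out (highest adjusted p = 0.0459) and under each of 4 scalings, among them poly-A scaling (-0.70, limma adjusted p = 0.0238).

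Padi4 encodes the peptidyl arginine deiminase that citrullinates histones when neutrophils release chromatin traps. Its signal was 1690, 1510 and 1593 on endosteal arrays, against 5509, 4096 and 3604 on central arrays. It fell by 1.43 on the log2 scale (SE 0.19, limma adjusted p = 0.0129), or 2.70-fold. The call was lost without central B (adjusted p = 0.0510) and with poly-A scaling (-0.41, limma adjusted p = 0.0909).

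Of the 5 measured surface receptors of the mature cell, 3 were called lower and 0 higher, against 3.97% of all genes called lower. Csf3r, the receptor for G-CSF, the main growth factor of neutrophils, had 3801, 3221 and 3999 on endosteal arrays, against 8552, 6276 and 6565 on central arrays. It fell by 0.95 on the log2 scale (SE 0.18, limma adjusted p = 0.0296). Trem1, an amplifier of inflammatory signals, had 772, 770 and 830 on endosteal arrays, against 1584, 1312 and 1312 on central arrays. It fell by 0.81 (SE 0.13, limma adjusted p = 0.0223), and its other probe set, at -0.37, did not pass. Cd177, a surface glycoprotein of neutrophils, had 11372, 10742 and 11212 on endosteal arrays, against 22874, 17790 and 16269 on central arrays, and fell by 0.76 (SE 0.17, limma adjusted p = 0.0420).

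For these 3 receptors the regions did not overlap, and central A was the highest array. Each of the 3 calls was lost whichever array was left out, when adjusted p reached 0.0793 for Csf3r, 0.0698 for Trem1 and 0.110 for Cd177. With poly-A scaling the changes were 0.075 for Csf3r, 0.20 for Trem1 and 0.27 for Cd177. Il1r2, the decoy receptor for interleukin 1, had 1178, 1021 and 1102 on endosteal arrays, against 2705, 1952 and 1616 on central arrays and did not pass at -0.89 (SE 0.22, limma adjusted p = 0.0550). Ltb4r1, the receptor for the attractant leukotriene B4, had 1832, 1593 and 1569 on endosteal arrays, against 2881, 1963 and 1689 on central arrays. Its regions overlapped (log2 difference -0.35, SE 0.23).

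Among effectors, Il1b, which encodes the cytokine interleukin 1 beta, had 1602, 1288 and 1516 on endosteal arrays, against 3682, 2245 and 2801 on central arrays. It fell by 0.95 on the log2 scale (SE 0.22, limma adjusted p = 0.0465), and the call was lost whichever of the 6 arrays was left out (adjusted p up to 0.124). Monocytes and macrophages also make it. Their 14 markers went both ways, with 8 positive and 6 negative log2 differences and a median of 0.21. The monocyte genes Ccr2, Cx3cr1, Irf8 and F13a1 had -0.88, -1.18, -0.69 and -0.51, of which Ccr2 and Irf8 were called. With the mean of its probe sets, Ccr2 had -0.38 and did not pass (limma adjusted p = 0.144). Among the 8 positive markers were Csf1r (0.37), Cd68 (0.48) and the macrophage genes given below. The part of monocytes in the values of Il1b was not tested. Anxa1, which encodes annexin A1, an abundant anti-inflammatory protein of the neutrophil cytosol and granules, had 39633, 40475 and 37422 on endosteal arrays, against 40758, 35540 and 35627 on central arrays. Its log2 difference was 0.07 (SE 0.12).

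The 4 measured subunits of the NADPH oxidase, the enzyme of the respiratory burst, all had negative differences, but 0 of 4 were called by limma. At an unadjusted limma p under 0.05, 2 were lower, against 11.3% of all genes. Ncf1, the cytosolic subunit p47phox, had 10798, 9389 and 9747 on endosteal arrays, against 18059, 14462 and 13144 on central arrays (log2 difference -0.60, SE 0.16, limma adjusted p = 0.0734). Its other 2 probe sets had -0.50 and -0.61. Ncf4, the cytosolic subunit p40phox, had 4789, 4181 and 4764 on endosteal arrays, against 8188, 6272 and 5461 on central arrays (log2 difference -0.52, SE 0.19). Cyba, a membrane subunit, had 14851, 15123 and 15550 on endosteal arrays, against 21792, 17608 and 17720 on central arrays (log2 difference -0.32, SE 0.14). Cybb, the catalytic membrane subunit, had 18140, 14943 and 19143 on endosteal arrays, against 22914, 20003 and 18005 on central arrays (log2 difference -0.22, SE 0.16). The regions did not overlap for Ncf1, Ncf4 and Cyba, and with poly-A scaling all 4 differences were positive, at 0.43 to 0.80. The 3 probe sets of Cybb disagreed in size, with -0.03, -0.22 and -1.05.

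The remaining granule and secreted proteins gave no call. Lyz2, lysozyme of neutrophils and macrophages, had 56335, 59206 and 55819 on endosteal arrays, against 48223, 46430 and 41887 on central arrays. The regions did not overlap, but the difference of 0.33 (SE 0.12) did not pass (limma adjusted p = 0.141). Chil3, a chitinase-like lectin of myeloid cells, had 39523, 39783 and 36228 on endosteal arrays, against 40585, 33352 and 31738 on central arrays (log2 difference 0.14, SE 0.15). Hp, the haemoglobin-binding haptoglobin, had 14895, 12418 and 13023 on endosteal arrays, against 18376, 14979 and 12711 on central arrays (log2 difference -0.18, SE 0.18).

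Regulators gave no call. Gfi1, a repressor needed for neutrophil differentiation, had 1628, 998 and 1150 on endosteal arrays, against 1272, 854 and 877 on central arrays, so that the regions overlapped (log2 difference 0.32, SE 0.25). Cebpd, a C/EBP factor of late granulopoiesis, had 2805, 2320 and 2888 on endosteal arrays, against 5379, 3853 and 3991 on central arrays. Its regions did not overlap, and the difference of -0.71 (SE 0.19) did not pass (limma adjusted p = 0.0658). The change of its other, dim, probe set was -0.89.

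Among central arrays, A was the highest for the mature group. The median of its 18 measured genes relative to the central means was 0.28 on central A, -0.08 on B and -0.16 on C, and -0.47, -0.66 and -0.52 on endosteal A, B and C. Without central A the median change was -0.41, and Pglyrp1 and Padi4 kept their calls.

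**Figure D3:**
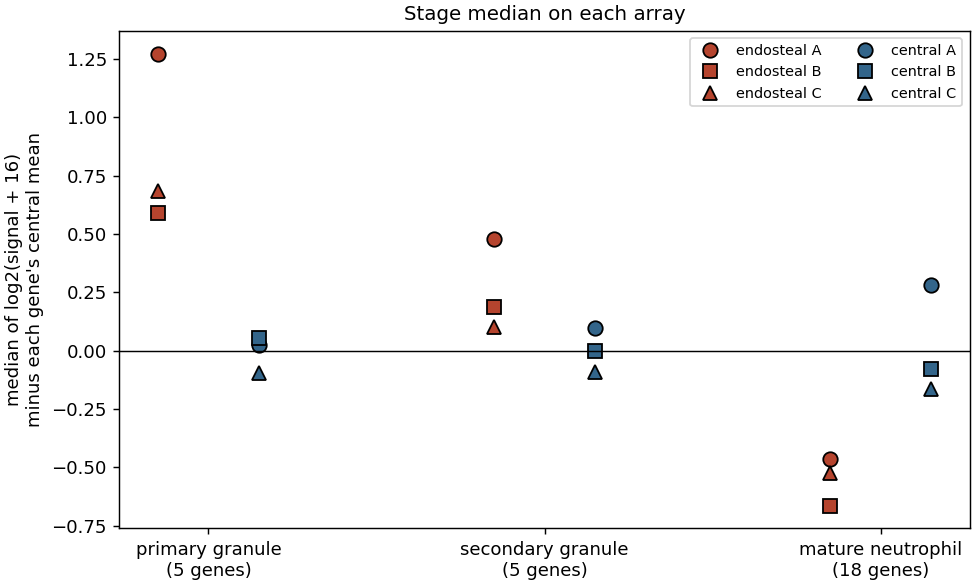
Median over each stage's measured genes (5, 5 and 18) of log2(signal + 16) minus the gene's central mean (vertical axis) on each of the 6 arrays, endosteal left and central right. The stages spread apart on the endosteal arrays. They run from 1.27, 0.59 and 0.68 for primary granule genes to -0.47, -0.66 and -0.52 for the mature group. On the central arrays, which lie around the central mean by construction, they range from -0.16 to 0.28.

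Neutrophil genes that are not among the 31 were listed by stage for comparison. Beside the counts of these and the following lists stand 7.74% of all genes called higher and 3.97% called lower. At an unadjusted limma p under 0.05 the shares of all genes were 17.7% and 11.3%, and without overlap of the regions 22.1% and 15.4%. Of 6 measured promyelocyte genes, 0 were called by limma, with a median of 0.29 and 3 higher and 1 lower at an unadjusted p under 0.05. The differences went both ways. Nkg7, a granule membrane gene, had 2974 ± 457 on endosteal and 1747 ± 336 on central arrays (SD, n = 3 each, log2 difference 0.77, limma adjusted p = 0.0669). Cebpa, a C/EBP factor of early granulopoiesis, had 1094 ± 197 on endosteal and 1827 ± 189 on central arrays (SD, n = 3 each, log2 difference -0.74, limma adjusted p = 0.0523). Of 19 measured genes of mature neutrophils, 2 were called higher and 6 lower, with a median of -0.80, and the regions did not overlap in the lower direction for 16 of them. Cxcr2, the chemokine receptor by which neutrophils leave the marrow, averaged 874 ± 167 on endosteal and 2482 ± 862 on central arrays and fell by 1.45 (SD, n = 3 each, limma adjusted p = 0.0333). Mxd1, a repressor that opposes Myc, fell by 1.43, Asprv1, a protease gene, by 1.14 and Csf2rb, the shared receptor chain of GM-CSF, by 1.13. With poly-A scaling none of these 4 passed, at -0.44 for Cxcr2, -0.41 for Mxd1, -0.14 for Asprv1 and -0.11 for Csf2rb. Mxd1 kept its call whichever array was left out, and Cxcr2 always lost it (limma adjusted p up to 0.0907). Asprv1 kept its call only without endosteal C, and Csf2rb only without central A or central C.

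The 2 called higher were S100a8 and S100a9, the subunits of calprotectin, at 0.55 and 0.82 (limma adjusted p = 0.0435 and 0.0187). S100a9 had 109637, 130402 and 126750 on endosteal arrays, against 71053, 68307 and 67555 on central arrays. Like Ngp and Camp they depended on the scale. After centring each array on its median, S100a8 had 0.29 and S100a9 had 0.55, and neither passed (limma adjusted p = 0.217 and 0.0516). Quantile normalisation gave -0.11 for S100a8 and 0.11 for S100a9, where neither passed. It gives every array the same set of values, so very bright genes can hardly differ there and it cannot decide whether they changed. With the letter as a replicate block neither passed (limma adjusted p = 0.120 for S100a8 and 0.0828 for S100a9). S100a8 lost its call whichever array was left out (limma adjusted p up to 0.135), and S100a9 kept its call only without endosteal A.

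Of 8 measured genes of a further myelocyte list, 0 were called higher and 4 lower, with a median of -0.78. This median lay below that of the mature group (-0.56) and close to that of the other mature list (-0.80). The order by stage therefore depends on the genes chosen for the middle stage. Itgb2l, an integrin chain gene, fell by 1.08 and Chil1, a chitinase-like secondary granule protein, by 0.99. Ifitm6, an interferon-induced membrane protein gene of myeloid cells, fell by 0.80 and Mmp8, the neutrophil collagenase, by 0.77. With the mean of its 3 probe sets, Itgb2l had -0.69 and did not pass (limma adjusted p = 0.263). Mmp8 had 13002, 15000 and 16430 on endosteal arrays, against 28803, 23594 and 23174 on central arrays (SE 0.16, limma adjusted p = 0.0383). With poly-A scaling none of the 4 passed, and the values were -0.055 for Itgb2l, 0.03 for Chil1, 0.23 for Ifitm6 and 0.26 for Mmp8. Chil1, Ifitm6 and Mmp8 lost their calls whichever array was left out (limma adjusted p up to 0.0903, 0.0981 and 0.102). Itgb2l lost its call only without central B (limma adjusted p = 0.0506).

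Cell cycle genes, which dividing precursors share with other marrow cells, had 0 of 11 measured called by limma, 0 higher and 1 lower at an unadjusted p under 0.05, and a median of -0.0031. Mki67, the proliferation marker, averaged 23127 ± 1795 on endosteal and 22998 ± 1527 on central arrays (SD, n = 3 each). Within the 14 monocyte and macrophage genes, the complement genes C1qa, C1qb and C1qc and the mannose receptor gene Mrc1, which resident macrophages express, rose by 1.56, 1.24, 1.36 and 1.60. Ccr2, the receptor of inflammatory monocytes, and Irf8, a monocyte and dendritic cell factor, fell by 0.88 and 0.69, and had 0.14 and 0.33 with poly-A scaling. Of 9 B lymphocyte genes 3 were called lower (median -0.85), of 7 erythroid genes 0 were called by limma and 2 were lower at an unadjusted p under 0.05 (median -0.37), of 7 eosinophil and mast cell genes 1 was called lower (median -0.41), and of 8 endothelial genes 4 were called higher (median 1.32).

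**Figure D4:**
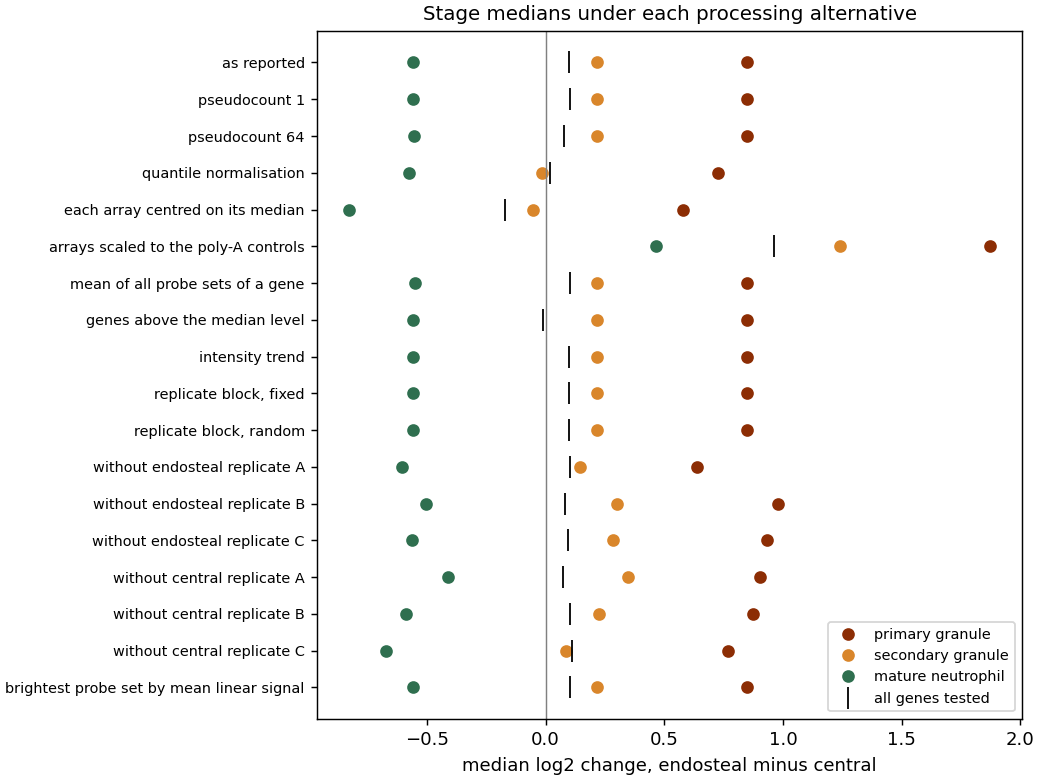
Median log2 change of each stage (points) and of all genes (ticks) under the reported processing (top) and 17 alternatives (horizontal axis, endosteal minus central). The points keep the order primary, secondary, mature from right to left in all 18 rows. Rows that change only the error model, the genes tested or a common scale could not alter it. The whole set moves with the scaling: with poly-A scaling all 3 medians are positive, at 1.87, 1.24 and 0.46.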

How the data were processed

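Biotin-labelled cRNA from 2 micrograms of total RNA was hybridised to Affymetrix mouse arrays, 1 per sample, per the labels. The deposited values are a linear signal (intensity) for 45101 probe sets on 6 arrays. The summarising software is not given in the sources used here. Without the highest and lowest 2% of its values, each array averaged 500. The median signal was 120 to 131 on endosteal and 97.2 to 106 on central arrays, and 15.9% to 20.1% of probe sets lay below 16. The number of arrays limits the precision. Femurs came from 3 mice, and p-values measure only the spread between these arrays.

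Gene names came from GEO's annotation of the array (34945 probe sets with 1 gene, 932 with several and 9160 with none, the last 2 kinds not used), and symbols were checked by gene identifier against RefSeq for GRCm38.p6 (34741 found, 0 changed). A gene was its probe set with the highest mean log2(signal + 16). limma 3.58.1 in R 4.3.3 compared log2(signal + 16) between regions, two-sided, with region as the only term and no filter. Such folds understate changes of dim genes. The procedure was tested on simulated data. Members, lists and alternatives were chosen with earlier results of these data known, so group counts and medians are descriptions without a test. All 31 genes were to be named, with up to 4 called genes per other list. Nkg7, Cebpa, Mki67, S100a8, S100a9, Cx3cr1, F13a1, Ccr2 and Irf8 fall outside that rule and were picked with their values known. Alternatives, among them the array letter as a block, are in the closing section.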

Additional observations from a re-analysis of the deposited data

How the results depend on the processing

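With the letter shared by an endosteal and a central array as a fixed replicate block, 0 members were called higher and 0 lower, with 7 and 10 at an unadjusted p under 0.05. Adjusted p of the 10 genes called without it was 0.0582 to 0.117. Over all genes that fit called 85 higher and 0 lower (0.467% and 0.0%), against 1409 and 723 without it. The labels do not say that a letter is 1 mouse, and deviations of same-letter arrays correlated for letters A, B and C at 0.05, 0.04 and 0.01 over all genes, 0.25, 0.12 and 0.08 over genes above the median level and 0.01, 0.06 and 0.16 over the members. With the letter as a random block 0 calls ended and 2 started, those of Elane and Il1r2. That fit called 5 members higher and 7 lower, against 9.17% and 5.17% of all genes. Without the block, 4 members were called higher and 6 lower. Quantile normalisation left 2 members called higher (6.26% of all genes), and centring of arrays at their medians left 1 (5.17%). The reported fit called 7.74% of all genes higher. Members called higher were 19 with poly-A scaling (57.9%), 8 among genes above the median level (18.3% of those) and 7 with an intensity trend (12%). They were 1 to 3 when 1 array was left out, where the share of all genes was 2.76% to 4.89%. The members called lower were 5 after quantile normalisation (3.8%), 9 after centring (10.9%) and 9 with a pseudocount of 64 (6.08%). They were 1 with poly-A scaling (0.258%), 10 among genes above the median level (18.9%) and 10 with an intensity trend (9.29%). When 1 array was left out they were 1 to 2, and the share of all genes fell too (0.489% to 1.63%, against 3.97%). Ms4a3 and Pglyrp1 kept their calls with each array left out. The primary, secondary and mature medians were 0.58, -0.052 and -0.83 after centring and 1.87, 1.24 and 0.46 with poly-A scaling, and the secondary median was -0.017 after quantile normalisation. These settings shift all genes of an array together or by level, which by itself moves every change.

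Signs turned as follows. After quantile normalisation the changes were -0.28 for Ltf, -0.017 for Camp, -0.41 for Lcn2, -0.23 for Chil3, -0.16 for Lyz2 and -0.27 for Anxa1. After centring they were -0.13 for Ltf, -0.23 for Lcn2, -0.052 for Fcnb, -0.13 for Chil3 and -0.20 for Anxa1. With poly-A scaling they were 0.31 for Cebpd, 0.84 for Hp, 0.075 for Csf3r, 0.27 for Cd177, 0.67 for Ltb4r1, 0.13 for Il1r2, 0.20 for Trem1, 0.80 for Cybb, 0.70 for Cyba, 0.43 for Ncf1, 0.50 for Ncf4 and 0.062 for Il1b. Lcn2 was -0.021 without central C. The mean of its probe sets gave Anxa1 -0.53, where 1 of the 2 probe sets was dim. Pseudocounts of 1 and 64, the random block and the choice of the brightest probe set by linear mean, which was added after the data were seen, turned no sign among the 28 genes.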
